A study of Mus musculus with 35 samples.

Results

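The comparison described here set resting type 1 conventional dendritic cells (cDC1) of Mycl-deficient mice against those of wild-type mice, in the second of 3 sets of Mycl arrays. Its members were the 5 arrays titled KO2 and the 5 titled WT2, chosen by title alone, which made 10 of the 35 arrays of the series. The KO mice carried Mycl GFP/GFP, in which a GFP reporter stands at both copies of Mycl, and the WT mice were Mycl+/+. All 10 arrays came from mice without poly IC, from spleens digested with collagenase and DNase, and from cDC1 purified by flow cytometric sorting. Because both KO alleles carry GFP, loss of Mycl and the presence of GFP cannot be told apart in this comparison. The labels call the arrays biological replicates without saying that each is a different mouse, and they give no age, sex or strain, so p-values measure the spread between these arrays. Total RNA of 100 pg to 2 ng was amplified with a WT Pico kit, labelled and hybridised to 1-colour Affymetrix arrays, and the deposited values are log2 intensities after RMA. Levels below are on that log2 scale and differences are KO minus WT, so that a difference of 1 is a doubling of the signal. Of 19938 named genes, 14011 reached the 30th percentile of the named transcript clusters (4.77 to 4.85) in at least 5 arrays and were tested with limma, with Benjamini-Hochberg adjustment over all of them.

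Mycl encodes L-MYC, 1 of the MYC family transcription factors. These proteins pair with MAX and bind E-boxes, of which CACGTG is the canonical form, and they are known for raising genes of ribosome assembly, translation, mitochondria and biosynthesis. Members of the MXD group and MNT pair with the same partner and repress. In dendritic cells Mycl takes the place of Myc as the cells mature from their progenitors, and cDC1, which capture antigen from dead cells and cross-present it to cytotoxic T cells, express it at a high level.

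The sorted cells had the transcripts of their label. The 11 cDC1 markers (among them Xcr1, Clec9a and Wdfy4) had mean levels of 10.57 to 10.71 in KO arrays and 10.50 to 10.64 in WT arrays. Mean levels were 6.93 to 7.18 in KO and 6.89 to 6.97 in WT arrays for 7 plasmacytoid dendritic cell markers, 6.34 to 6.56 and 6.40 to 6.59 for 10 monocyte or macrophage markers, and 5.23 to 5.70 and 5.22 to 5.43 for 9 cDC2 markers. B cell (6), T cell (5), NK cell (7), neutrophil (7) and erythroid (2) markers averaged 4.67 to 5.72 over all arrays. The 10 arrays had correlations of 0.992 to 0.995 with the others of their own group and 0.988 to 0.992 with those of the other group. Their first principal component, with 33% of the variance over the tested genes, had scores of -11.4 to -6.14 in KO arrays and 2.63 to 13.9 in WT arrays. The design names spike-ins scaled to cell number, but the value table did not show them, and differences therefore compare a transcript with the remaining RNA of its array. In bulk RNA, fewer cells of a type and less RNA per cell cannot be told apart.

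Mycl itself checked the labels. Its level was 5.80, 5.79, 5.50, 5.53 and 5.63 in Mycl KO cells, against 9.79, 9.61, 9.63, 9.55 and 9.78 in WT cells, with no overlap and a difference of -4.03 ± 0.07 (SE; adjusted p = 1.07e-14). The level left in KO cells stood above the filter level, and whether its probes lie outside the replaced part was not tested. Myc, the founding member of the family, was at 8.44, 8.62, 8.91, 8.86 and 8.80 in Mycl KO cells, against 7.70, 7.58, 7.10, 7.66 and 7.68 in WT cells. Every KO array lay above every WT array, and Myc rose by 1.18 ± 0.11 (SE; adjusted p = 7.85e-05), and Mycl and Myc were the 2 network members that passed. The other 11 members of the MYC, MAX and MLX network differed by -0.15 to 0.28 and did not pass (smallest adjusted p = 0.131), among them Max, Mnt, Mga and the Mxd genes.

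In all, 862 of the 14011 genes passed at an adjusted p under 0.05 (6.15%), with 531 higher (3.79%) and 331 lower (2.36%) in KO cells, and 2975 had an unadjusted p under 0.05 (21.2%). Genes in any of the function lists used below held 220 rises and 150 falls among 3933 tested, a share of 9.41%. This is above the 6.15% of all genes, so a list share near 9.41% is no excess over the other lists. The lists were chosen with earlier results of these data known. Most changes were small. The median rise was 0.31 and the median fall -0.31, 65 genes (0.464%) differed by at least 1.5-fold (40 higher, 25 lower), and at least 2-fold differences were limited to 6 rises and 4 falls. The groups did not overlap for 604 of the 862 (70.1%), against 944 of all genes tested (6.74%). Because the 862 were chosen by p on these same arrays, the higher share is no separate support for them. Rises made up 61.6% of the calls. That share was 51.9% after cyclic loess and 46.8% when each array was centred on its median, so which direction prevailed depended on the scaling, which moved the median of all genes from 0.008 to -0.002 and -0.019. The calls numbered 452 without KO array 5, 408 without WT array 1 and 507 without WT array 2, and 581 to 1012 without any 1 of the other 7. A total of 335 calls (207 rises, 128 falls) were kept with each array left out in turn. The genes named below were chosen mainly from these: 107 of the 117 kept their call in each of the 10 fits. Where a named gene has a set 2 difference and SE without a p, its adjusted p in set 2 was 0.000189 to 0.047. That range does not apply to differences given for the other Mycl sets. When all 8 groups of the series shared 1 estimate of the spread, 358 genes passed (95 rises and 42 falls in the function lists, against 220 and 150 in the test within set 2), and of the 117 genes 69 kept their call. The 48 that did not were Adap1, Aimp1, Arid5b, Ccnd2, Ccr2, Ccr9, Cct8, Cd200, Cd300e, Cd8a, Cdc42ep3, Cox7a2l, Cxcr3, Cxcr4, Dapk1, Eef1e1, Eif3l, Fdft1, Hspa9, Il6ra, Irf7, Irf8, Klri1, Klrk1, Mrpl17, Pacsin1, Rfc2, Rgs12, Rpf2, Slc25a39, Slc29a1, Slfn5, Snora41, Snord33, Snord37, Sp140, Spic, Stat2, Svbp, Tars, Tbx21, Timm23, Tlr3, Tlr9, Tomm20, Usp18, Utp4 and Wdr75.

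Genes of the cell type markers passed in both directions. The 11 tested cDC1 markers held 5 rises (Batf3, Irf8, Tlr3, Flt3 and Zbtb46) and 1 fall (Cd8a), or 54.5%. The 7 plasmacytoid markers held 2 rises (Tcf4 and Ccr9) and 1 fall (Pacsin1), or 42.9%. The 9 tested monocyte or macrophage markers held 2 rises (Ccr2 and Cx3cr1) and 2 falls (Cd14 and Spic), or 44.4%. Over all genes the share was 6.15%, but these lists are short. With 1 array left out the rises of the 3 lists numbered 2 to 4, 0 to 2 and 1 to 4. With all 8 groups in 1 fit the rises were 3, 1 and 1 and the falls 0, 0 and 1. Several of these calls were near the threshold. Batf3 and Irf8 kept their call in 2 of the 10 fits that leave out 1 array, Spic in 3, Tcf4 and Tlr3 in 5, Ccr2 in 6 and Ccr9 in 9, and all 7 lost it without WT array 1.

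**Figure D1:**
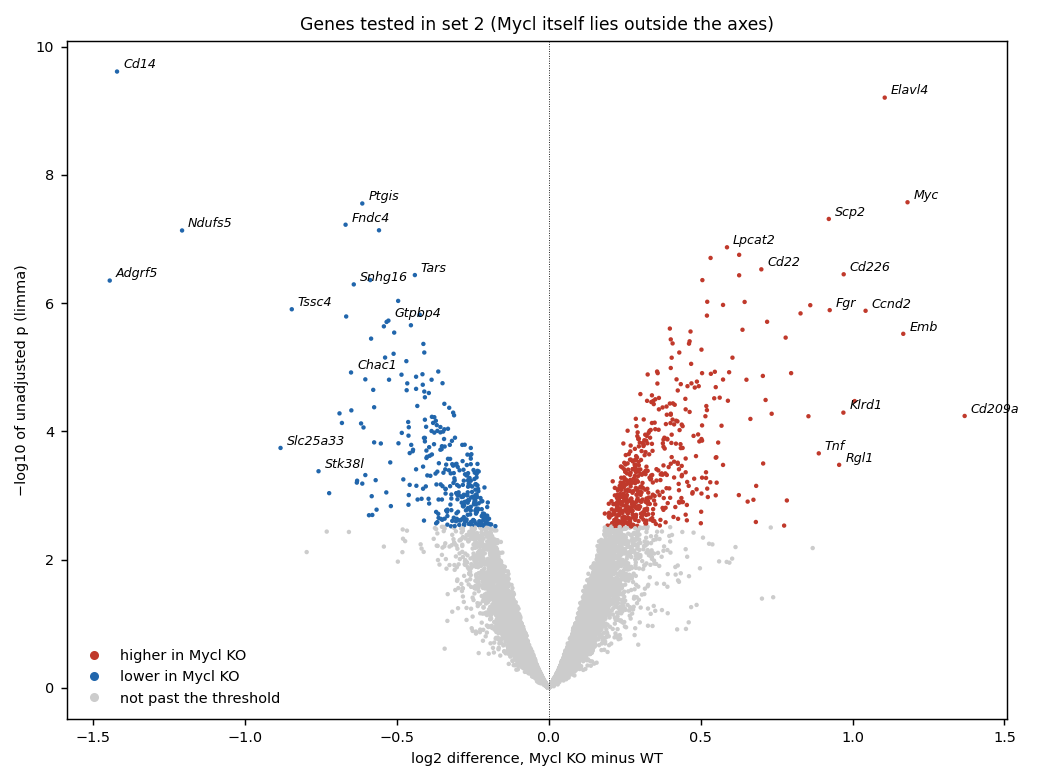
Each point is 1 of the genes tested, with the log2 difference (Mycl KO minus WT) on the x axis and minus log10 of the unadjusted limma p on the y axis; Mycl, at -4.03, lies outside the axes. Red points are the 531 genes higher and blue points the 331 lower in Mycl KO cells at an adjusted p under 0.05, and the labelled genes include Myc at 1.18 and Cd14 at -1.42.

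**Figure D2:**
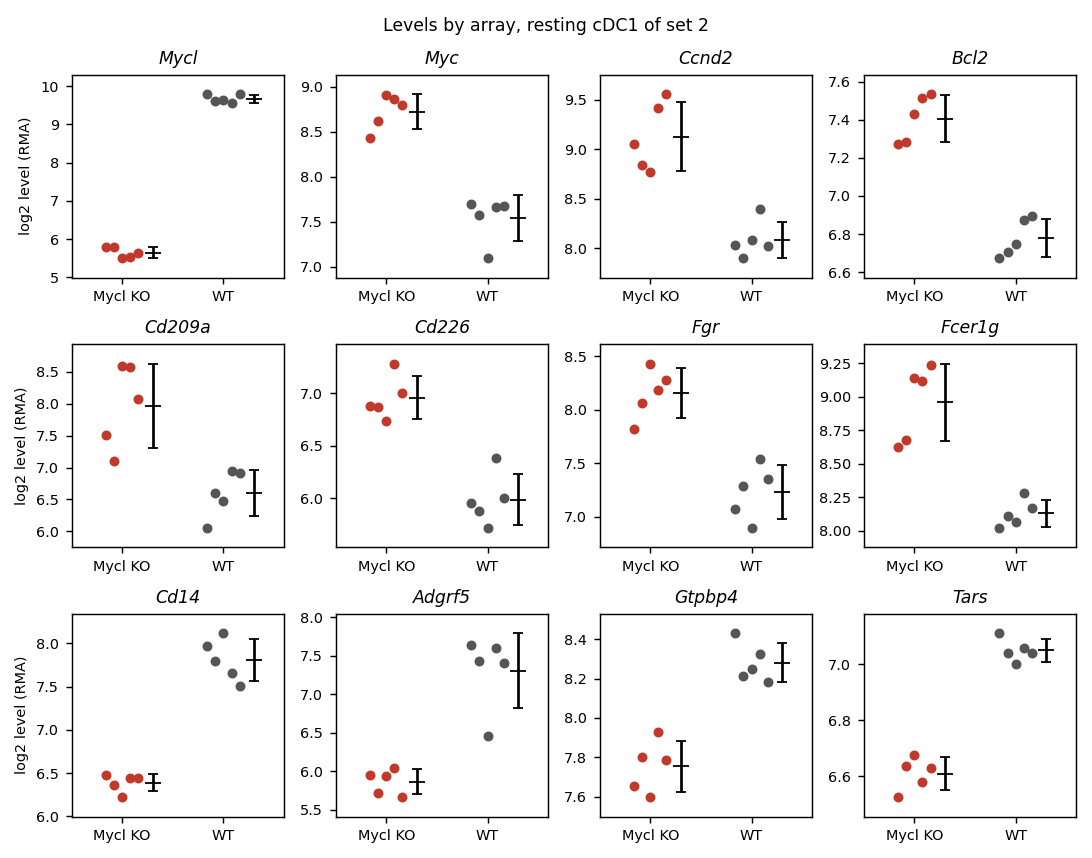
Log2 levels of 12 genes in the 5 Mycl KO arrays (red, left) and the 5 WT arrays (grey, right), with the mean and SD of each group beside the points; the y axes differ between panels and do not start at 0. In each of the 12 panels the groups do not overlap, with Myc, Ccnd2, Bcl2, Cd209a, Cd226, Fgr and Fcer1g higher in KO cells and Mycl, Cd14, Adgrf5, Gtpbp4 and Tars lower.

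Genes of cell division held 11 rises and 0 falls, and Bcl2 and Pim1, which favour survival, rose as single genes. Ccnd2, the G1 cyclin D2, was at 9.05, 8.84, 8.77, 9.42 and 9.56 in Mycl KO cells, against 8.03, 7.90, 8.09, 8.39 and 8.03 in WT cells, a rise of 1.04 ± 0.14 (SE; adjusted p = 0.000663) with no overlap. The cell cycle lists cover D cyclins and their inhibitors, E2F factors, replication and mitosis, and 5 histone genes. Of their 83 tested genes, 11 rose and 0 fell (13.3% called, against 6.15% of all genes and 9.41% of genes in the function lists). A total of 70 lay above 0, and the median was 0.15, against 0.008 over all genes. When any 1 array was removed the rises numbered 2 to 15, moving by over 1.5 times without KO array 2 (5), KO array 3 (7), KO array 5 (2), WT array 1 (3), WT array 2 (2), WT array 3 (6) and WT array 4 (3), and 2 in the fit with all 8 groups. Rfc2, a subunit of the clamp loader of replication, rose by 0.32 ± 0.06, and Slc29a1, which imports nucleosides, by 0.35 ± 0.07. Bcl2, which blocks mitochondrial apoptosis, was at 7.27, 7.28, 7.43, 7.52 and 7.53 in Mycl KO cells, against 6.67, 6.71, 6.75, 6.87 and 6.90 in WT cells. It rose by 0.63 ± 0.07 (SE; adjusted p = 0.000226), the 1 call among 18 tested BCL2 family genes (5.56%), and the survival kinase Pim1 rose by 0.29 ± 0.05.

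Receptors best known from natural killer (NK) cells and T cells rose in a small list. Of 16 tested genes of the cytotoxic and NK-type list, 5 rose and 1 fell (37.5%), with a median of 0.17. Cd226, an adhesion receptor that activates lymphocytes through nectin-like ligands, was at 6.88, 6.87, 6.74, 7.28 and 7.01 in Mycl KO cells, against 5.96, 5.88, 5.72, 6.38 and 6.0 in WT cells. The groups were separate, with a difference of 0.97 ± 0.11 (SE; adjusted p = 0.000323). Klrd1 (CD94), which pairs with NKG2 chains to bind a nonclassical MHC molecule, was at 6.84, 6.86, 7.79, 7.55 and 7.44 in Mycl KO cells, against 6.41, 5.87, 6.30, 6.69 and 6.36 in WT cells, a rise of 0.97 ± 0.17 (SE; adjusted p = 0.0056) without overlap. Klrk1 (NKG2D) rose by 0.44 ± 0.08 and Tbx21 (T-bet), the transcription factor of type 1 responses, by 0.39 ± 0.07, while Klri1, another lectin-like NK receptor, was the fall at -0.41 ± 0.09. With 1 array left out at a time the rises numbered 4 to 6, and 3 in the fit with all 8 groups. Of the 7 NK cell markers on the array, Ncr1, Klrb1c, Gzma and Eomes did not reach the filter, and the mean level of the 7 was 4.87 to 5.00 in KO and 4.67 to 4.84 in WT arrays, 2 of its 3 tested members being Klrd1 and Tbx21. Cd22, an inhibitory lectin of B cells, rose by 0.70 ± 0.08, and Cd200, ligand of an inhibitory receptor on myeloid cells, by 0.55 ± 0.09. Ms4a1 (CD20) went the other way at -0.58 ± 0.10, as did the coreceptors Cd4 at -0.53 ± 0.07 and Cd8a, carried by splenic cDC1 as a homodimer, at -0.38 ± 0.08. The 6 B cell markers on the array averaged 5.30 to 5.51 in KO and 5.27 to 5.49 in WT arrays, with Cd79a and Ebf1 below the filter.

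Myeloid receptors and their signalling chain changed in both directions. Fcer1g, the gamma chain shared by Fc receptors and several activating receptors, was at 8.62, 8.68, 9.14, 9.12 and 9.24 in Mycl KO cells, against 8.03, 8.11, 8.07, 8.28 and 8.17 in WT cells, and Fgr, a Src-family kinase of myeloid cells, at 7.82, 8.06, 8.43, 8.19 and 8.28 in Mycl KO cells, against 7.07, 7.29, 6.90, 7.54 and 7.35 in WT cells. Neither gene overlapped between groups, and they rose by 0.83 ± 0.11 (SE; adjusted p = 0.000699) and 0.93 ± 0.12 (SE; adjusted p = 0.000663). Among 46 tested Fc, complement and paired receptor genes 8 rose and 2 fell (21.7%), although the median of the list, -0.014, lay below that of all genes. Their members included Cd33, a sialic acid-binding lectin (0.55 ± 0.12), and Cfp, the complement factor properdin (0.53 ± 0.06). Leaving out each array in turn, the rises were 7 to 9, and 7 in the fit with all 8 groups. Cd300e, an activating receptor of monocytes, fell (-0.38 ± 0.07). Spic, a transcription factor of splenic red pulp macrophages, was lower in KO cells too (-0.58 ± 0.16). Ms4a6c, a membrane-spanning 4A protein, rose by 0.72 ± 0.10 and Itgam (CD11b), an integrin chain of cDC2 and monocytes, by 0.44 ± 0.08.

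Cd209a, a relative of human DC-SIGN that marks cDC2, had the largest rise of all genes tested, but its KO arrays were uneven. It was at 7.50, 7.10, 8.59, 8.57 and 8.08 in Mycl KO cells, against 6.06, 6.59, 6.48, 6.95 and 6.92 in WT cells, so that KO arrays 1 and 2 lay closer to the WT arrays than arrays 3, 4 and 5 did, and the groups did not overlap (1.37 ± 0.25, adjusted p = 0.00597). KO arrays 1 and 2 also lay below KO arrays 3, 4 and 5 for Klrd1, Fcer1g, Fgr, Myc, Emb, Cx3cr1, Rgl1 and Rasgrp2. Ccnd2, Cd226 and Tnf did not have this order. Genes placed under different functions therefore shared a pattern between KO arrays, and its source was not tested. The C-type lectin list held 6 rises and 1 fall among 31 tested (22.6%). The rises in fits without 1 array numbered 3 to 7, moving by over 1.5 times without KO array 5 (3) and WT array 1 (3), and 3 in the fit with all 8 groups. The cDC2 markers Clec4a4, Clec10a and Mgl2 lay below the filter. Of the 6 tested cDC2 markers 2 rose (Cd209a and Itgam) and 1 fell (Cd4), or 50%, against 6.15% of all genes. The rises numbered 2 to 3 with 1 array left out. The part of cDC2 in these values was not tested. Cd14, the coreceptor for bacterial lipopolysaccharide, had the largest fall after Mycl and Adgrf5. Its levels were 6.48, 6.37, 6.22, 6.44 and 6.44 in Mycl KO cells, against 7.96, 7.80, 8.12, 7.66 and 7.50 in WT cells, with all KO arrays within 0.26 of each other and a difference of -1.42 ± 0.10 (SE; adjusted p = 1.72e-06). Tlr9 and Tlr3, the endosomal receptors for CpG DNA and double-stranded RNA, rose by 0.43 ± 0.07 and 0.26 ± 0.07, and 3 rises and 1 fall stood among 22 tested genes of Toll-like receptors and their adaptors (18.2%), with 1 or 2 rises when 1 array was left out.

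Receptors coupled to G proteins held rises mostly, with 1 large fall. Of 122 tested genes outside the chemokine receptors, 13 rose and 2 fell (12.3%), with a median of 0.025 that became -0.002 with median centring. Over the 10 fits without 1 array the rises were 6 to 15, moving by over 1.5 times without WT array 1 (6), and 7 in the fit with all 8 groups. Adgrf5, an adhesion receptor, was at 5.95, 5.72, 5.93, 6.04 and 5.66 in Mycl KO cells, against 7.64, 7.42, 6.46, 7.60 and 7.40 in WT cells. WT array 3 was the lowest of its group and still above all KO arrays, and the difference was -1.44 ± 0.17 (SE; adjusted p = 0.000329), the largest after Mycl. F2rl2, a protease-activated receptor, rose by 0.86 ± 0.11 and the orphan receptor Gpr141 by 0.85 ± 0.15. The 36 tested chemokines and chemokine receptors held 5 rises and 1 fall (16.7%), among them Ccr2, which brings monocytes out of the marrow (0.55 ± 0.14), and Ccr9, a gut-homing receptor also found on plasmacytoid dendritic cells (0.43 ± 0.10). When any 1 array was removed the rises numbered 2 to 6, moving by over 1.5 times without KO array 5 (3) and WT array 1 (2), and 2 in the fit with all 8 groups. Cx3cr1, the fractalkine receptor, was at 6.55, 6.64, 7.11, 7.16 and 6.96 in Mycl KO cells, against 6.24, 6.12, 6.35, 6.50 and 6.41 in WT cells, a rise of 0.56 ± 0.11 (SE; adjusted p = 0.00999). Cxcr3, the receptor for interferon-induced chemokines, rose by 0.32 ± 0.07, whereas Cxcr4, the receptor for Cxcl12, changed by -0.38 ± 0.07. Cytokine receptors held 7 rises and 1 fall among 46 (17.4%), including Flt3, the growth factor receptor that dendritic cells depend on (0.27 ± 0.06), and Il6ra (0.30 ± 0.06). With 1 array left out at a time the rises numbered 2 to 9, moving by over 1.5 times without KO array 2 (4), KO array 4 (4), KO array 5 (4), WT array 1 (2), WT array 2 (4) and WT array 4 (4), and 2 in the fit with all 8 groups. Tnf was at 9.91, 10.37, 10.60, 10.30 and 10.21 in Mycl KO cells, against 8.87, 9.93, 8.98, 9.32 and 9.86 in WT cells. The KO and WT ranges overlapped, and its difference was 0.89 ± 0.18 (SE; adjusted p = 0.0124).

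Markers of migratory dendritic cells were uneven among arrays, with mean levels of 8.75 to 9.82 in KO and 8.54 to 9.47 in WT arrays, and 0 of the 4 tested passed in limma. The 4 all lay above 0, with a median of 0.36 (0.28 in set 1 and 0.74 in set 3) and a smallest adjusted p of 0.0508. Their part in the other results was not tested.

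Regulators of small GTPases and G proteins held 16 rises and 1 fall among 198 tested (8.59%), a share near the 6.15% of all genes. Leaving out each array in turn, the rises were 11 to 26, moving by over 1.5 times without WT array 5 (26), and 6 in the fit with all 8 groups. Rgl1, an exchange factor for Ral, was at 5.48, 5.62, 6.45, 6.32 and 6.80 in Mycl KO cells, against 5.11, 5.07, 4.82, 5.37 and 5.50 in WT cells. KO array 1 fell within the WT range, and the difference was 0.96 ± 0.21 (SE; adjusted p = 0.0157). Rasgrp2, which activates the Rap1 switch for integrins, was at 5.88, 6.14, 6.46, 6.63 and 6.59 in Mycl KO cells, against 5.48, 5.52, 5.81, 5.74 and 5.58 in WT cells, a rise of 0.71 ± 0.12 (SE; adjusted p = 0.00433) without overlap. Further rises were those of Ripor2, which inhibits RhoA (0.70 ± 0.11), Rgs18 (0.65 ± 0.10) and Rgs12 (0.55 ± 0.09), which end signals of G alpha subunits, and Adap1, a GTPase-activating protein for Arf6 (0.66 ± 0.12). Cdc42ep3, an effector of Cdc42, rose by 0.59 ± 0.10. Of 132 tested MAP and other kinases 9 rose and 2 fell (8.33%), with Dapk1, a death-associated kinase, at 0.41 ± 0.06, and Stk38l, a kinase of the Hippo-related NDR family, at -0.76 ± 0.17. The rises in fits without 1 array numbered 4 to 11, moving by over 1.5 times without KO array 2 (5), WT array 1 (4) and WT array 2 (5), and 5 in the fit with all 8 groups. Dusp7, a phosphatase that switches off ERK, rose by 0.57 ± 0.07.

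The cytoskeleton list held 13 rises and 3 falls among 199 tested (8.04%), a share near that of all genes. Over the 10 fits without 1 array the rises were 8 to 18, moving by over 1.5 times without KO array 5 (8), and 4 in the fit with all 8 groups. Vim, the intermediate filament protein vimentin, was at 11.16, 11.41, 11.11, 11.35 and 11.34 in Mycl KO cells, against 10.74, 10.83, 10.91, 10.91 and 10.97 in WT cells, a rise of 0.40 ± 0.07 (SE; adjusted p = 0.00462) with separate groups. Wasf2, which drives branched actin growth at the cell edge, rose by 0.31 ± 0.06 and Cap1, which turns over actin filaments, by 0.32 ± 0.06. Svbp, the partner of the vasohibins that remove tyrosine from tubulin, rose by 0.63 ± 0.07. On the other side, Jup (plakoglobin, a junction protein) was at -0.67 ± 0.09 and Pacsin1, which bends membranes in endocytosis and marks plasmacytoid dendritic cells, at -0.54 ± 0.08.

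Transcription factors of dendritic cells held 10 rises and 1 fall among 62 tested (17.7%), with a median of 0.079. When any 1 array was removed the rises numbered 3 to 12, moving by over 1.5 times without KO array 4 (4), KO array 5 (3), WT array 1 (3), WT array 2 (3) and WT array 3 (5), and 4 in the fit with all 8 groups. Zbtb46, the factor that marks classical dendritic cells, was at 8.31, 8.23, 8.12, 8.26 and 8.21 in Mycl KO cells, against 8.07, 7.93, 7.78, 7.72 and 8.04 in WT cells, a small rise of 0.32 ± 0.07 (SE; adjusted p = 0.0185) without overlap. Batf3 and Irf8, the factors that cDC1 need to develop, rose by 0.28 ± 0.07 and 0.21 ± 0.06, and Tcf4 (E2-2), the factor of plasmacytoid dendritic cells, by 0.50 ± 0.12. Irf7, which amplifies type I interferon, rose by 0.43 ± 0.09. The 1 fall of the list was Ahr (-0.37 ± 0.10, limma adjusted p = 0.0369), which is not counted among the named genes above. Ahr lost its call without KO array 5 or WT array 1, 3 or 4, with the replicate block and with all 8 groups in 1 fit. Outside this list, Arid5b, a chromatin-binding regulator, rose by 0.38 ± 0.07. Falls outside it were those of Crem, a cAMP-responsive factor (-0.69 ± 0.12), and Sp140, a nuclear body protein of immune cells (-0.61 ± 0.12). Interferon-stimulated genes held 7 rises and 0 falls among 43 (16.3%), with a median of 0.061, and 5 to 8 rises with 1 array left out. Stat2 rose by 0.34 ± 0.06, Slfn5 by 0.41 ± 0.08 and Usp18, the protease that removes ISG15 and dampens the interferon receptor, by 0.39 ± 0.07. In the fit with all 8 groups 0 of the 43 rose.

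**Figure D3:**
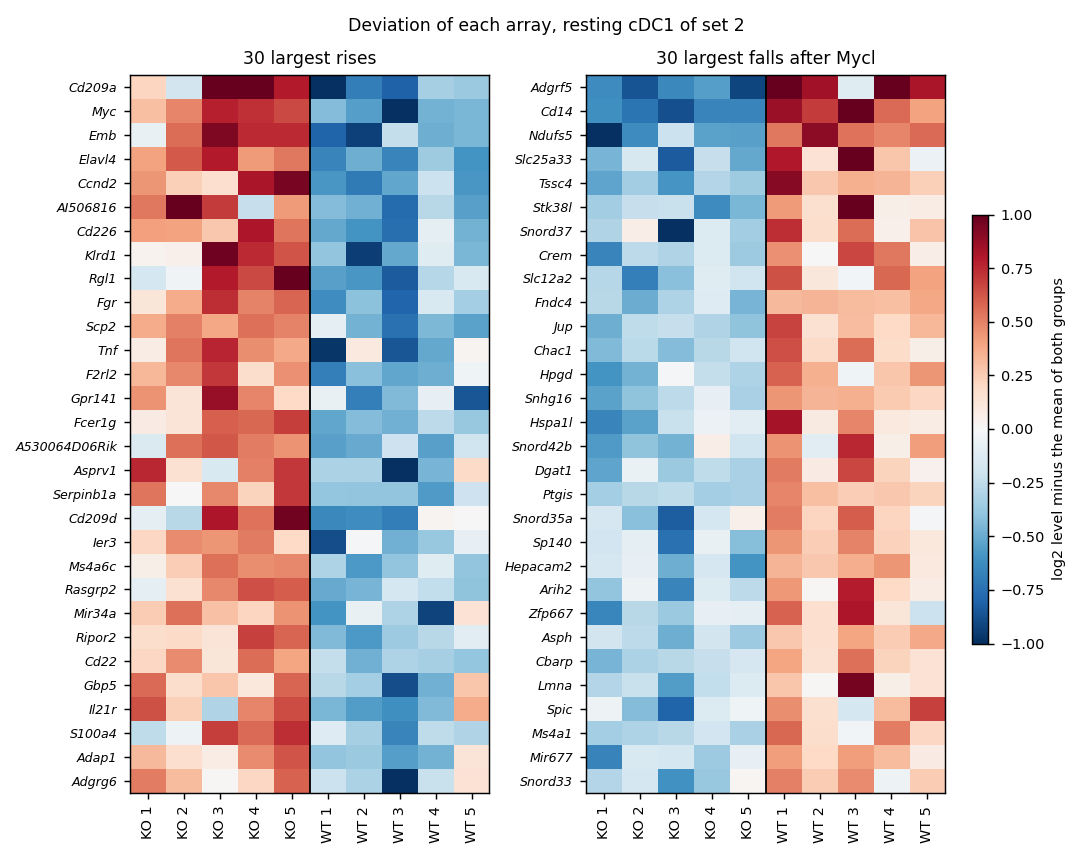
Colour shows the log2 level of each array minus the mean of both group means, from -1 (blue) to 1 (red; values beyond are drawn at the end of the scale), for the 30 largest rises (left) and the 30 largest falls after Mycl (right) among genes past the threshold. The 5 Mycl KO arrays stand left of the line and the 5 WT arrays right of it. Genes such as Cd209a and Klrd1 vary among the KO arrays, while Ptgis, Fndc4 and Myc do not overlap between groups.

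Lipid genes changed in both directions. Sterol synthesis held 5 rises and 0 falls among 19 tested (26.3%), with 16 members above 0 and a median of 0.16, with 4 to 7 rises when 1 array was left out and 3 in the fit with all 8 groups. Dhcr7, which makes the last step to cholesterol, was at 6.91, 7.18, 7.38, 7.29 and 7.53 in Mycl KO cells, against 6.79, 6.80, 6.69, 6.73 and 6.68 in WT cells, a rise of 0.52 ± 0.09 (SE; adjusted p = 0.00483) without overlap. Msmo1, a sterol demethylase, rose by 0.57 ± 0.11, Fdft1 (squalene synthase) by 0.42 ± 0.09 and Nsdhl by 0.29 ± 0.06. In the list of fatty acid synthesis and lipid handling 1 of 34 rose and 5 fell (17.6%), with a median of -0.041. With 1 array left out at a time the falls numbered 2 to 7, moving by over 1.5 times without KO array 5 (3) and WT array 1 (2), and 2 in the fit with all 8 groups. Dgat1, which makes the last step to triglycerides, was at 7.07, 7.53, 7.22, 7.33 and 7.27 in Mycl KO cells, against 8.11, 7.68, 8.26, 7.82 and 7.63 in WT cells, a difference of -0.62 ± 0.12 (SE; adjusted p = 0.00687). The list of lipid mediators and phospholipids held 5 rises and 4 falls among 72 (12.5%). Leaving out each array in turn, the rises were 2 to 6, moving by over 1.5 times without KO array 5 (2), WT array 1 (3), WT array 2 (3) and WT array 3 (3), and 1 in the fit with all 8 groups. The falls numbered 3 to 5 with 1 array left out and 1 with all 8 groups. Ptgis, prostacyclin synthase, was at 7.77, 7.83, 7.85, 7.77 and 7.79 in Mycl KO cells, against 8.60, 8.41, 8.36, 8.38 and 8.33 in WT cells. Both groups were tight, and the difference was -0.61 ± 0.06 (SE; adjusted p = 7.85e-05). Hpgd, which breaks prostaglandins down, was at -0.65 ± 0.12, and Lpcat2, which makes platelet-activating factor, at 0.59 ± 0.06. The phospholipid flippases Atp8b4 and Atp10a rose by 0.50 ± 0.07 and 0.40 ± 0.06. Scp2, a sterol carrier and peroxisomal thiolase, was at 6.12, 6.26, 6.13, 6.30 and 6.25 in Mycl KO cells, against 5.65, 5.28, 5.0, 5.30 and 5.21 in WT cells, with a difference of 0.92 ± 0.09 (SE; adjusted p = 0.000114).

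Amino acid and metabolite transporters held 5 rises and 5 falls among 57 tested (17.5%). The falls in fits without 1 array numbered 2 to 4, moving by over 1.5 times without KO array 1 (3), KO array 3 (2), KO array 4 (3), KO array 5 (2), WT array 1 (2), WT array 2 (3), WT array 3 (2) and WT array 4 (3), and 3 in the fit with all 8 groups. The rises numbered 4 to 7 with 1 array left out and 3 with all 8 groups. Slc2a1 (GLUT1), the glucose transporter, was at 9.10, 9.25, 9.32, 9.22 and 9.35 in Mycl KO cells, against 8.65, 8.63, 8.74, 8.67 and 8.94 in WT cells, a rise of 0.52 ± 0.07 (SE; adjusted p = 0.000708). Slc29a3, which exports nucleosides from lysosomes, rose by 0.47 ± 0.07, and the sodium-potassium-chloride carrier Slc12a2 was at -0.68 ± 0.13. Emb (embigin), a membrane glycoprotein that escorts monocarboxylate transporters, was at 6.44, 7.07, 7.45, 7.26 and 7.26 in Mycl KO cells, against 5.71, 5.58, 6.28, 6.03 and 6.06 in WT cells, a rise of 1.17 ± 0.16 (SE; adjusted p = 0.00101) without overlap.

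Genes of protein synthesis made up the largest group of falls. Of 268 tested genes for ribosome assembly, ribosomal proteins, translation factors and aminoacyl-tRNA synthetases, 39 fell and 3 rose. That is 15.7% called, against 6.15% of all genes and 9.41% of genes in the function lists. A total of 218 of the 268 lay at or below 0, and the median was -0.105, against 0.008 over all genes. Over the 10 fits without 1 array the falls were 16 to 42, moving by over 1.5 times without KO array 5 (25), WT array 1 (16), WT array 2 (21), WT array 3 (21) and WT array 4 (25), and 9 in the fit with all 8 groups. The median stayed below 0 after cyclic loess (-0.114) and median centring (-0.132).

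The promoters of 3 genes that fell and 1 that rose are shown because each holds the E-box CACGTG, in capitals, and because the 4 belong to different steps of protein synthesis. The windows run from 250 bases before to 50 bases after the transcription start in RefSeq for GRCm38.p6, on the strand of the gene. Tars, at chr15:11399609-11399908 on the minus strand, codes for threonyl-tRNA synthetase. Rpf2, at chr10:40246990-40247289 on the minus strand, codes for a factor that places the 5S particle into the large subunit. Utp4, at chr8:106893390-106893689 on the plus strand, codes for a small subunit processome protein. Eef2k, at chr7:120842581-120842880 on the plus strand, codes for the kinase that inhibits elongation factor 2. The first base of the motif lies at position 20 from the start in Tars, 35 in Rpf2, 16 in Utp4 and -31 in Eef2k.
Tars: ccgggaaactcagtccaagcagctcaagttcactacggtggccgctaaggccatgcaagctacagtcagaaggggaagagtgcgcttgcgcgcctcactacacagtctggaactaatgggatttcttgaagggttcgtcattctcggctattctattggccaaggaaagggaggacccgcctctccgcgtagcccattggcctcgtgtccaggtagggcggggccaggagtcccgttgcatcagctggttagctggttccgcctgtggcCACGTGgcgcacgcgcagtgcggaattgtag
Rpf2: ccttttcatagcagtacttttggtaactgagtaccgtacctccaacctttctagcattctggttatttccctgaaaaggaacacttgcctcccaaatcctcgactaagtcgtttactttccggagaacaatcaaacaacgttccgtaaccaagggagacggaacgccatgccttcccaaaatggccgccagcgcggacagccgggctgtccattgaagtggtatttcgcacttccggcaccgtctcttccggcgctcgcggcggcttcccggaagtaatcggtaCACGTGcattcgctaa
Utp4: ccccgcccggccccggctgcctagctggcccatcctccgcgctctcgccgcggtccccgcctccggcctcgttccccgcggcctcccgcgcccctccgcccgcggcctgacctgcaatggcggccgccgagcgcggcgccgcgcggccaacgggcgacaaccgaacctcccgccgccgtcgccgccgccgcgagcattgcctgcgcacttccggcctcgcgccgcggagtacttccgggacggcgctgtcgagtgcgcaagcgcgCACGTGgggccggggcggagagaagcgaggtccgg
Eef2k: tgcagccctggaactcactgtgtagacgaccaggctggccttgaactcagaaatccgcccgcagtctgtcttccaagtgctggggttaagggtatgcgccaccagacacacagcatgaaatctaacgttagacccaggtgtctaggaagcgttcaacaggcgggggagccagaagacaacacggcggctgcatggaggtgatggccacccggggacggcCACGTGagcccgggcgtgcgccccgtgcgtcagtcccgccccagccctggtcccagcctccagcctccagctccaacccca

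Tars was at 6.53, 6.64, 6.67, 6.58 and 6.63 in Mycl KO cells, against 7.11, 7.04, 7.0, 7.06 and 7.04 in WT cells. The groups were far apart for their spread, with a difference of -0.44 ± 0.05 (SE; adjusted p = 0.000323). Rpf2 was at 6.92, 6.85, 7.05, 6.85 and 7.03 in Mycl KO cells, against 7.42, 7.33, 7.29, 7.31 and 7.42 in WT cells, also without overlap (-0.41 ± 0.06, adjusted p = 0.00124), and Utp4 was at 7.52, 7.72, 7.80, 7.90 and 7.76 in Mycl KO cells, against 8.16, 8.02, 8.15, 7.99 and 8.02 in WT cells (-0.33 ± 0.07, adjusted p = 0.014). Eef2k was at 6.83, 7.07, 7.37, 7.27 and 7.27 in Mycl KO cells, against 6.82, 6.77, 6.64, 6.79 and 6.85 in WT cells, so that the groups overlapped. It rose by 0.39 ± 0.09 (SE; adjusted p = 0.0186) and lost its call without KO array 5 (adjusted p = 0.0534). A match to CACGTG was found in the windows of 50 of 262 genes that fell (19.1%), 44 of 423 that rose (10.4%) and 1211 of 11081 tested genes with a window (10.9%), against 2349 of all 32851 windows (7.15%). The motif reads the same on both strands. Within the protein synthesis lists it stood in 10 of 32 falls (31.2%) and 38 of 213 tested genes (17.8%), and among falls outside these lists in 40 of 230 (17.4%). Median GC content was 60.5% for genes that fell, 61.0% for genes that rose and 60.2% for all tested. These shares describe letters in the windows and do not show binding.

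Of the 4 lists that cover ribosome assembly, large subunit assembly held the most falls. The union of RNA polymerase I, small and large subunit and snoRNP lists held 18 falls and 2 rises among 126 tested (15.9%), with a median of -0.085. When any 1 array was removed the falls numbered 8 to 19, moving by over 1.5 times without WT array 1 (8), WT array 2 (11) and WT array 3 (9), and 3 in the fit with all 8 groups. Large subunit assembly had 10 falls and 1 rise among 49 tested (22.4%). The small subunit processome had 4 and 0 among 44 (9.09%), near the 9.41% of genes in the function lists. RNA polymerase I had 2 and 0 among 14 (14.3%), but its median was -0.013 and 5 of the 14 lay above 0. The snoRNP and nucleolar proteins had 2 and 1 among 19 (15.8%). Without WT array 1 the falls were 3 in large and 2 in small subunit assembly, and in the fit with all 8 groups 2 and 0. Large subunit falls also dropped to 5 without WT array 2 or 3 and 6 without WT array 4, and small subunit falls to 2 without WT array 3. RNA polymerase I falls ranged from 1 to 2 and snoRNP falls from 1 to 3 in the fits without 1 array. Gtpbp4, a nucleolar GTPase that matures the large subunit, was at 7.66, 7.80, 7.60, 7.93 and 7.79 in Mycl KO cells, against 8.43, 8.21, 8.25, 8.33 and 8.18 in WT cells, the largest fall of these lists (-0.53 ± 0.07, adjusted p = 0.00079). Nip7, which acts in pre-rRNA processing, was at 6.26, 6.45, 6.41, 6.52 and 6.55 in Mycl KO cells, against 7.03, 6.97, 6.84, 6.95 and 6.73 in WT cells, a difference of -0.47 ± 0.07 (SE; adjusted p = 0.00198). Polr1c, a subunit shared by RNA polymerases I and III, changed by -0.49 ± 0.06. Wdr75, a small subunit processome protein also needed for transcription of rRNA, changed by -0.41 ± 0.08.

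All 56 tested cytosolic ribosomal proteins lay at or below 0, with a median of -0.13, but 4 of them passed (7.14%), a share near the background. With 1 array left out at a time the falls numbered 2 to 13, moving by over 1.5 times without KO array 3 (13), WT array 1 (2), WT array 2 (2) and WT array 4 (2), and 4 in the fit with all 8 groups. Rps3 was at 11.05, 11.07, 11.17, 11.04 and 11.06 in Mycl KO cells, against 11.47, 11.55, 11.38, 11.38 and 11.35 in WT cells, with KO array 3 the highest of its group and a difference of -0.35 ± 0.06 (SE; adjusted p = 0.003), and Rpl4 changed by -0.23 ± 0.05. Probes of ribosomal protein genes can also bind transcripts of their near-identical pseudogenes, which cannot be told apart here. Among 66 translation factors 11 fell and 1 rose (18.2%), the rise being Eef2k. Leaving out each array in turn, the falls were 4 to 12, moving by over 1.5 times without KO array 4 (6), KO array 5 (4), WT array 1 (4), WT array 2 (6), WT array 3 (6) and WT array 4 (6), and 2 in the fit with all 8 groups. Eif3l, a subunit of the initiation factor that prepares the small subunit, was at 8.17, 8.29, 8.01, 8.21 and 8.14 in Mycl KO cells, against 8.74, 8.61, 8.55, 8.59 and 8.59 in WT cells, a difference of -0.45 ± 0.06 (SE; adjusted p = 0.000866). Eef1b2, which recharges elongation factor 1A, changed by -0.36 ± 0.07 and Pabpc1, which binds poly(A) tails, by -0.28 ± 0.06. Of 21 synthetases and their scaffold 7 fell and 0 rose (33.3%), with a median of -0.14. The falls in fits without 1 array numbered 3 to 7, moving by over 1.5 times without KO array 3 (4), WT array 1 (3), WT array 2 (3) and WT array 3 (4), and 0 in the fit with all 8 groups. Aimp1 and Eef1e1, scaffold proteins of the multisynthetase complex, changed by -0.32 ± 0.06 and -0.41 ± 0.07.

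**Figure D4:**
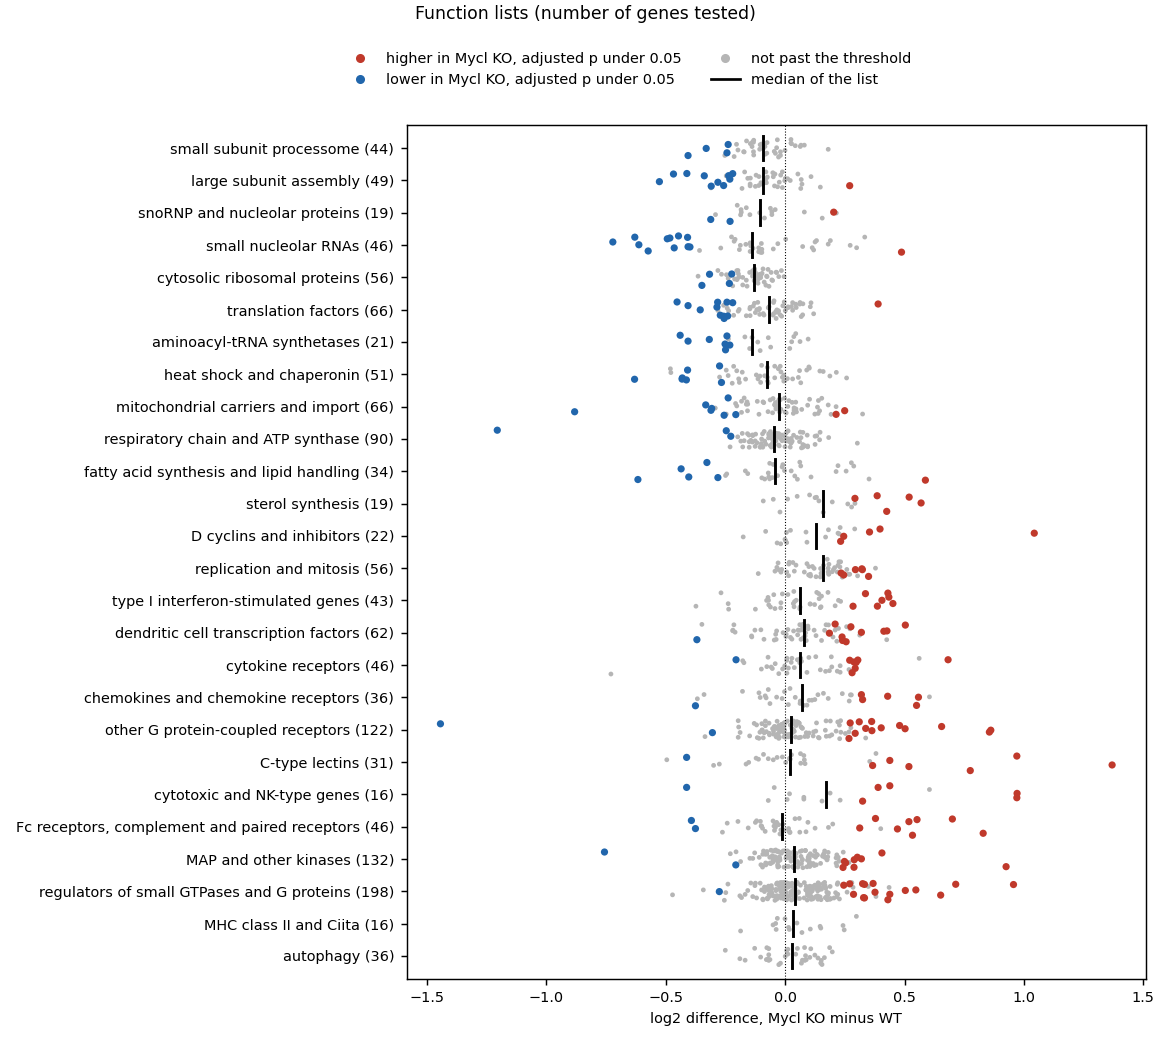
Each point is a tested gene of 1 of 26 function lists, placed by its log2 difference (Mycl KO minus WT, values beyond 1.5 drawn at 1.5) on the x axis, with red for genes higher and blue for genes lower in Mycl KO cells past the threshold and grey for the rest; the vertical spread within a row has no meaning and black bars are list medians. Blue points stand in the ribosome, translation, synthetase and chaperone rows, with medians of -0.09 to -0.14 for the ribosome assembly rows shown and synthetases, while sterol synthesis, the cell cycle rows and most receptor and signalling rows hold red points. RNA polymerase I genes, with a median of -0.013, have no row.

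Small nucleolar RNAs, which guide modification of rRNA, fell too, in a list added after their values had been seen. Of 46 tested, 11 fell and 1 rose (26.1%), with a median of -0.14 and 7 to 12 falls with 1 array left out (7 without WT array 1) and 2 in the fit with all 8 groups. Snord33 was at 6.85, 6.97, 6.53, 6.76 and 7.16 in Mycl KO cells, against 7.64, 7.40, 7.62, 7.09 and 7.39 in WT cells, with ranges that overlapped and a difference of -0.57 ± 0.11 (SE; adjusted p = 0.00999). Snora41 changed by -0.49 ± 0.10. Snord37 changed by -0.72 ± 0.18, lost its call without KO array 5, WT array 1 or WT array 3 (adjusted p = 0.0573, 0.0755 and 0.0586) and had KO levels of 5.06, 5.43, 4.27, 5.23 and 5.01. Snhg16, a noncoding host gene of such RNAs, was at 5.80, 5.93, 6.08, 6.25 and 6.01 in Mycl KO cells, against 6.77, 6.68, 6.69, 6.59 and 6.54 in WT cells, a difference of -0.64 ± 0.08 (SE; adjusted p = 0.000359) without overlap and the 1 call among 6 tested host genes. Most of these RNAs are cut from introns of host transcripts, and array probes cannot tell them from unspliced host RNA.

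Some genes of protein folding and mitochondrial import fell as well. Heat shock proteins and the chaperonin held 7 falls and 0 rises among 51 tested (13.7%), with a median of -0.075. Over the 10 fits without 1 array the falls were 4 to 8, moving by over 1.5 times without WT array 1 (4), and 1 in the fit with all 8 groups. Cct3 and Cct8, subunits of the chaperonin that folds actin and tubulin, were at -0.41 ± 0.07 and -0.43 ± 0.08. Hspa9, the mitochondrial Hsp70 that pulls proteins through the inner membrane, was at 7.95, 8.10, 8.19, 8.17 and 8.22 in Mycl KO cells, against 8.62, 8.47, 8.54, 8.51 and 8.53 in WT cells, a difference of -0.41 ± 0.06 (SE; adjusted p = 0.00159) without overlap. Among 233 tested mitochondrial genes 12 fell and 2 rose (6.01%), close to the background of 6.15%, with a median of -0.032. When any 1 array was removed the falls numbered 7 to 11, moving by over 1.5 times without WT array 1 (7), WT array 2 (7) and WT array 3 (7), and 2 in the fit with all 8 groups. Timm23 and Tomm20, the inner pore and an outer receptor of protein import, were at -0.31 ± 0.06 and -0.31 ± 0.06. Slc25a39, a mitochondrial glutathione carrier, changed by -0.26 ± 0.05, the mitoribosomal protein Mrpl17 by -0.26 ± 0.05 and Cox7a2l, which joins respiratory complexes, by -0.25 ± 0.06. The largest fall of these lists was that of Ndufs5, a subunit of complex I, at 6.05, 6.52, 6.93, 6.62 and 6.61 in Mycl KO cells, against 7.67, 8.04, 7.69, 7.63 and 7.71 in WT cells (-1.21 ± 0.12, adjusted p = 0.000115). Slc25a33, a carrier of pyrimidine nucleotides into mitochondria, was at 5.32, 5.62, 4.95, 5.55 and 5.27 in Mycl KO cells, against 6.58, 5.92, 6.83, 6.06 and 5.72 in WT cells, with WT arrays more spread than for Ndufs5 and a difference of -0.88 ± 0.18 (SE; adjusted p = 0.0108). Chac1, an ATF4 target that degrades glutathione, was at 6.95, 7.12, 6.96, 7.12 and 7.19 in Mycl KO cells, against 8.03, 7.58, 7.95, 7.57 and 7.45 in WT cells, a difference of -0.65 ± 0.10 (SE; adjusted p = 0.00259), and 3 of 23 tested ATF4 genes fell (13%), but 1 without WT array 1 or WT array 2.

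A few of the largest changes stood outside these groups. Fndc4, a secreted fibronectin type III protein, was at 7.01, 6.79, 6.98, 7.16 and 6.82 in Mycl KO cells, against 7.61, 7.62, 7.61, 7.59 and 7.68 in WT cells, a difference of -0.67 ± 0.07 (SE; adjusted p = 0.000115) with no overlap. Tssc4, which acts in the assembly of the U5 spliceosome particle, was at 7.81, 7.98, 7.74, 8.04 and 7.97 in Mycl KO cells, against 9.24, 8.60, 8.69, 8.67 and 8.56 in WT cells (-0.84 ± 0.11, adjusted p = 0.000663), with WT array 1 the highest. Elavl4, an RNA-binding protein of neurons, was at 4.97, 5.19, 5.36, 5.0 and 5.10 in Mycl KO cells, against 3.91, 4.08, 3.91, 4.21 and 3.98 in WT cells. Its WT levels lay below the filter level, so it was tested only because its KO arrays reached that level. The size of its rise, 1.11 ± 0.08 (SE; limma adjusted p = 2.92e-06), is therefore not exact, and the p-value is no support for it. Serpinb1a, an inhibitor of neutrophil serine proteases, was at 5.67, 5.13, 5.61, 5.35 and 5.84 in Mycl KO cells, against 4.74, 4.74, 4.74, 4.57 and 4.92 in WT cells, a rise of 0.78 ± 0.11 (SE; adjusted p = 0.00113) from WT levels at about the filter. The 7 neutrophil markers on the array held 0 calls in limma's test among the 5 tested, and their mean level was 4.79 to 5.12 in KO and 4.77 to 4.95 in WT arrays.

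Other lists had shares of calls near or under the background. MHC class II genes with Ciita (16 tested), autophagy genes (36) and unfolded protein response genes (23) held 0 calls each in limma, with medians of 0.033, 0.028 and 0.044. Ubiquitin ligases and proteases held 4 rises and 3 falls among 328 (2.13%), ion channels and pumps 2 and 1 among 152 (1.97%) and mitochondrial ribosomal proteins 0 and 2 among 77 (2.6%), all under the background of 6.15%. Chromatin regulators held 11 rises and 2 falls among 158 (8.23%), zinc finger proteins 18 and 9 among 314 (8.6%) and small GTPases 4 and 1 among 118 (4.24%). With 1 array left out at a time the chromatin rises numbered 3 to 13, moving by over 1.5 times without KO array 4 (7), KO array 5 (3), WT array 1 (5), WT array 2 (7) and WT array 3 (6), and 6 in the fit with all 8 groups. Zinc finger rises were 5 without WT array 1, 6 without KO array 5, 7 without KO array 3, 9 without WT array 2 or 4, 10 without KO array 4, 11 without WT array 3 and 6 in the fit with all 8 groups. Rises among ubiquitin genes ranged from 1 (without KO array 5) to 11 (without KO array 1).

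Mycl lies on chromosome 4, and genes near a targeted allele can carry sequence of the strain in which it was made. Within 10 tested genes on each side 3 of 20 passed (15%), namely Cap1 and Rlf, a zinc finger protein (0.29 ± 0.08), which rose, and Ndufs5, which fell. Within 40 on each side 9 of 80 passed (11.2%), among them Slc2a1 and Svbp, against 46 of 900 on the chromosome (5.11%). Rlf lost its call without KO array 1, 2, 4 or 5 or WT array 1, 3 or 5 (adjusted p = 0.0523 to 0.0940). The part of flanking sequence in these values was not tested.

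The same genes were read in the other Mycl sets, each within its own set and with its own control arrays. Set 1 compared resting Mycl GFP/GFP cDC1 (4 arrays) with heterozygous Mycl GFP/+ cells (5 arrays), and set 3 compared Mycl GFP/GFP with WT cDC1 (5 arrays each) 5 h after 100 µg of poly IC, a double-stranded RNA that triggers interferon. Limma called 3 genes of 14023 in set 1 (0.0214%; 1991 at an unadjusted p under 0.05, 14.2%) and 0 of 14033 in set 3 (0%; 1992 at an unadjusted p under 0.05, 14.2%). Of the genes that fell in set 2, 248 of 328 lay below 0 in set 1 (75.6%, against 49.4% of all genes) and 255 of 318 in set 3 (80.2%, against 51.1%). Of those that rose, 301 of 525 lay above 0 in set 1 (57.3%, against 50.6%) and 348 of 520 in set 3 (66.9%, against 48.9%).

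The ribosome assembly union had medians of -0.085 in set 2, -0.17 in set 1 and -0.40 in set 3, and the synthetases of -0.14, -0.13 and -0.41. Rpf2 differed by -0.41 ± 0.06 in set 2, -0.40 ± 0.07 in set 1 and -0.66 ± 0.19 in set 3, and Tars by -0.44 ± 0.05, -0.30 ± 0.10 and -0.93 ± 0.21. The cell cycle lists had medians of 0.15, -0.15 and -0.044 and sterol synthesis of 0.16, -0.042 and -0.065, so that these lay above 0 in set 2 alone. The difference between the effects of set 2 and set 1 was itself tested and passed for 148 of 14639 genes (1.01%), 119 of them called in set 2 (90 rises and 29 falls), and for 30 with the replicate number as a block. Myc, Bcl2 and Cd14 kept this call with the block (limma adjusted p = 0.0264, 0.00749 and 0.00354). The labels do not say whether the replicate numbers pair the samples. Myc differed by 1.18 ± 0.11 in set 2 and -0.01 ± 0.13 in set 1 (difference 1.19 ± 0.18, adjusted p = 0.00324), and corresponding values were given by Bcl2 (0.63 ± 0.07 and -0.08 ± 0.07; difference 0.71 ± 0.10, adjusted p = 0.00205) and Cd14 (-1.42 ± 0.10 and 0.03 ± 0.14; difference -1.45 ± 0.18, adjusted p = 0.000198). For Ccnd2, which did not pass this test, the values were 1.04 ± 0.14 and 0.42 ± 0.14, and for Rpf2 the difference was -0.01 ± 0.09, adjusted p = 0.955. The controls of the 2 resting sets differ in genotype. Array medians were 6.50 to 6.57 in set 1 and 5.55 to 5.60 in set 2, and which arrays were normalized together is not given. What genotype or normalization contributed to these differences was not tested. Between sets 2 and 3 the difference passed for 3 of 14665 genes (0.0205%; 1902 at an unadjusted p under 0.05), 1 of them called in set 2, Adgrf5 (difference -1.45 ± 0.24, adjusted p = 0.0316). Adgrf5 was under the filter in set 3, so an effect could not be measured there and this value is in the main that of set 2.

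**Figure D5:**
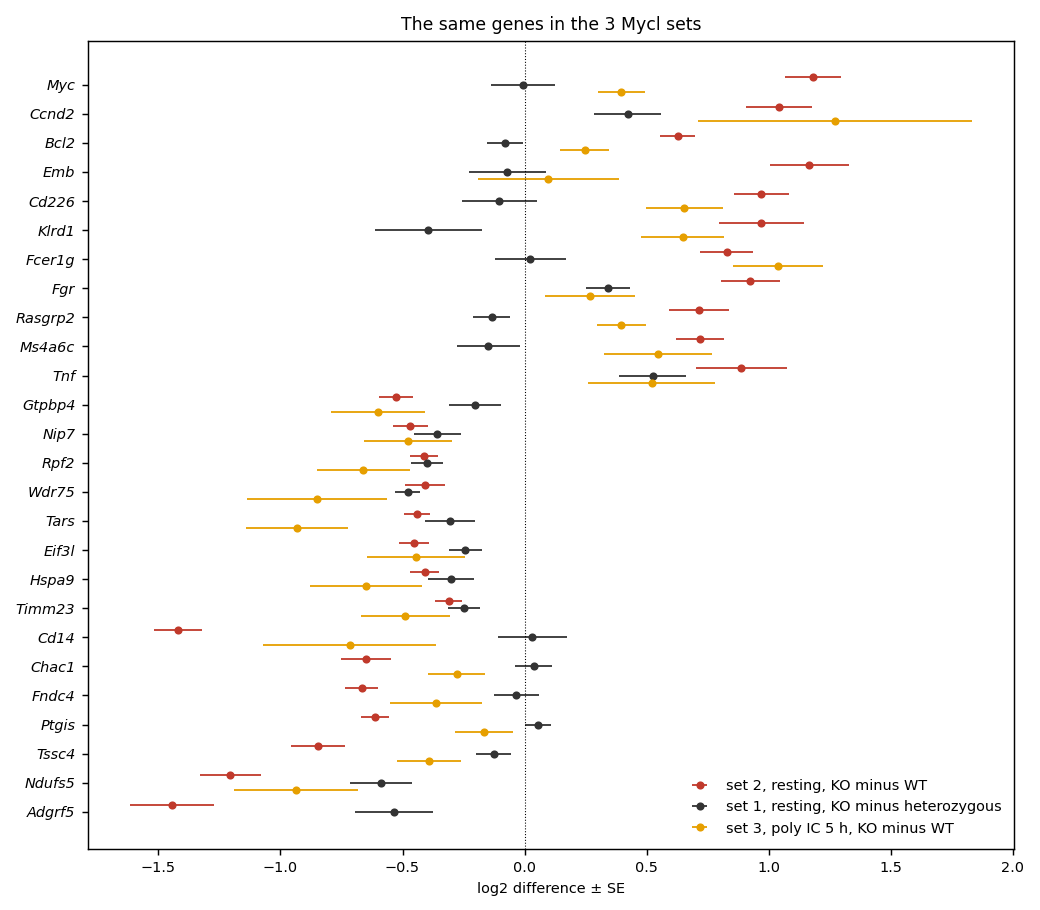
Log2 differences with their SE (x axis) of 26 genes in set 2 (red, Mycl KO minus WT, resting), set 1 (black, Mycl KO minus heterozygous, resting) and set 3 (orange, Mycl KO minus WT, 5 h after poly IC); Adgrf5 was under the filter in set 3 and has no point there. Ribosome, translation and import genes such as Rpf2, Wdr75, Tars and Timm23 lie below 0 in the 3 sets, while Myc, Emb and Cd14 lie near 0 in set 1.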

How the data were processed

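RNA of sorted spleen cDC1 was measured on 35 1-colour arrays, of which the 5 Mycl KO and 5 WT arrays of set 2 were compared and sets 1 and 3 were read beside them. The deposited values are log2 intensities per transcript cluster, which the authors made with Affymetrix Expression Console and RMA, per the submitters' processing notes. The sources used here give neither versions nor which arrays were normalized together. Within set 2 the array medians were 5.55 to 5.60, and the number of arrays limits the precision.

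Of 35556 clusters, 21789 had 1 gene symbol in the platform annotation, 1621 had several and 12146 had none listed, and only the first were named, giving 19938 genes. For the 999 genes with several clusters the one with the highest mean over all arrays was kept. No symbol changed when 21698 were matched to RefSeq by gene ID. The test used limma 3.58.1 in R 4.3.3 (lmFit and eBayes) on the 10 arrays with no covariate, on genes at or above the 30th percentile in at least 5 arrays, with Benjamini-Hochberg adjustment and a threshold of 0.05. Differences between sets were contrasts in 1 fit of both sets.

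Genes are named from the MYC network, the 40 largest rises and falls, the 5 largest called members of each list in each direction, the 10 nearest neighbours of Mycl on each side and the cell type markers, preferring those kept with each array left out. Members, the 62 function lists and this rule were chosen with earlier results of these data known. The 2 lists of small nucleolar RNAs and their hosts were added after their values had been seen. Alternatives were other filters, array weights, the replicate number as a block, cyclic loess, median centring, a trended robust prior, another choice of cluster, all 8 groups in 1 fit and leaving out each array. The fit was tested on simulated data.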

Additional observations from a re-analysis of the deposited data

Results flagged for a closer look

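Among the 117 named genes in 2 groups of 5 arrays, 13 single gene values stood apart from the other 4 arrays of their group by Dixon's criterion (0.71 for 5 samples). Chance flags about 1 in 20 groups. Of these, 2 were in KO arrays. Cd4 was at 5.43 in KO array 2 (5.67 to 5.76 in the others), and Rps3 at 11.17 in KO array 3 (11.04 to 11.07 in the others). WT array 3 was low for Adgrf5, at 6.46 (others 7.40 to 7.64), for Cd300e, at 7.14 (others 7.34 to 7.39), for Cfp, at 8.68 (others 8.77 to 8.80), and for Myc, at 7.10 (others 7.58 to 7.70). WT array 1 was high for Lpcat2, at 6.96 (others 6.65 to 6.71), and Tssc4, at 9.24 (others 8.56 to 8.69), and low for Tbx21, at 5.46 (others 5.67 to 5.73). WT array 5 was high for Adap1, at 7.67 (others 7.0 to 7.17), and Dapk1, at 9.40 (others 9.19 to 9.25). WT array 4 was high for Cxcr3, at 9.88 (others 9.61 to 9.68), and WT array 2 for Ndufs5, at 8.04 (others 7.63 to 7.71). Each of these 13 genes kept its call without that array.

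The effect of Mycl differed between set 2 (KO minus WT) and set 1 (KO minus heterozygous), by limma's test of the difference itself, for 34 named genes, of which 14 also passed with the replicate number as a block (Atp8b4, Bcl2, Cd14, Cd22, Cd226, Elavl4, Emb, Fndc4, Myc, Mycl, Ptgis, Rasgrp2, Ripor2 and Slc2a1). Over all genes the test passed for 148 of 14639 (1.01%). The named genes were all called in set 2, and the difference contains their set 2 values, so that choice raises their count. Whether the replicate numbers pair the samples is not given by the labels. The values that follow are the log2 difference of set 2 minus that of set 1. Genes with a rise in set 2 and a larger value there were Klrd1 at 1.36, Emb at 1.24, Myc at 1.19, Cd226 at 1.07, Elavl4 at 0.90, Ms4a6c at 0.87, Rasgrp2 at 0.85, Fcer1g at 0.81, Atp8b4 at 0.76, Scp2 at 0.76, Cd22 at 0.73, Bcl2 at 0.71 and Ripor2 at 0.69. The smaller ones were Dusp7 at 0.49, Rgs12 at 0.47, Vim at 0.47, Atp10a at 0.46, Slc2a1 at 0.46, Tlr9 at 0.46, Arid5b at 0.44, Lpcat2 at 0.38, Slc29a1 at 0.38 and Slc29a3 at 0.34. Genes with a fall in set 2 and a lower value there were Cd14 at -1.45, Mycl at -1.15, Tssc4 at -0.72, Chac1 at -0.69, Ptgis at -0.67, Crem at -0.66, Fndc4 at -0.64, Pacsin1 at -0.62, Dgat1 at -0.60, Snhg16 at -0.58 and Jup at -0.48. Elavl4 was under the filter in set 1 and in the WT arrays of set 2, so its value is not an exact difference of effects. It was tested only through its set 2 KO arrays, so its place among the 34 and the 14 is no support. The set 1 control carries 1 intact copy of Mycl, and the part of that genotype in these differences was not tested. Between set 2 and set 3, where the mice had received poly IC, the difference passed for 1 named gene, Adgrf5, at -1.45. Adgrf5 was under the filter in set 3, where no effect could be measured, so this is in the main its fall in set 2.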

How the results depend on the processing

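The 531 rises became 237 and the 331 falls 121 when all 8 groups of the series shared 1 fit, and array weights gave 831 rises. With 1 array left out at a time the rises numbered 252 to 663 and the falls 141 to 349. Both counts stayed within 1.5 times under the other filters (447 and 583 rises), cyclic loess (480), median centring (411), a trended robust prior (548) and another choice of cluster (529). The median of the protein synthesis lists ranged from -0.132 to -0.086 and that of the cell cycle lists from 0.119 to 0.183 over all alternatives. Of the 117 named genes none changed sign, and 65 kept their call in every alternative, while 48 lost it in the fit with all 8 groups. Outside that fit and the fits without 1 array, Batf3 lost its call with the replicate block, Irf8 with no filter, the replicate block and median centring, Rlf with no filter and median centring, Tlr3 with median centring, and Snord37 and Spic with the trended robust prior. The 148 genes that differed between sets 2 and 1 became 30 with the replicate number as a block, and the 3 that differed between sets 2 and 3 became 9 with the trended robust prior. The cause of these moves was not tested. Deviations of same-numbered KO and WT arrays from their group means had correlations of -0.106 to 0.137. These cannot show whether the arrays were paired in handling, and the labels do not say. The replicate block gave 540 rises and 293 falls. The values hold no spike-in scale and the number of arrays limits the precision.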
